A study of Homo sapiens with 24 samples.

Results

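The unfolded protein response and the integrated stress response were represented by 10 genes, and each was asked for a Myc peak at its ends. The members were chosen by name, with earlier results of these data known. A member was marked when a deposited peak reached within 1 kb of either end of its RefSeq gene span in hg38, and the 10 members are among 20037 protein-coding genes on chromosomes 1 to 22, X and Y. The assay was CUT&Tag, where an antibody directs a transposase to the DNA that Myc occupies and the cut fragments pile up into peaks. Mia PaCa-2, the line used, is an established line from a human pancreatic carcinoma, and in both groups used here it carries a tet-on (doxycycline-inducible) construct for MED30, a Mediator subunit. Mediator bridges transcription factors and RNA polymerase II. The first group was 1 Myc library titled as day 5 of doxycycline, and the second was 1 Myc library of the same cells with no doxycycline. The protocol gives fixation in 0.1% formaldehyde for 2 minutes for both. The labels do not say whether the line is 1 clone. An effect of doxycycline itself and of induced MED30 cannot be told apart, because no cells without the construct are in these groups. The other 22 of the 24 samples, among them control IgG libraries, were not analysed here, and nothing was subtracted from the deposited Myc peaks. The labels do not say whether IgG entered the peak calls. The shared protocol gives 2 days of doxycycline, unlike the 5 days of the title, and the title was followed.

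With 1 library per condition there was no replicate check, no test between the conditions was made, and every difference below compares these 2 libraries. The day 5 list held 6727 peaks and the list without doxycycline 3472 on these chromosomes. The lists give no read totals, and depth was judged from the fragments over each summit, with a median of 12 at day 5 (quartiles 8 and 17) and 11 without doxycycline (8 and 15). Fewer than 10 fragments lay over the summit of 34.8% of day 5 peaks and 42.2% of peaks without doxycycline. At 2842 sites listed once in each library, the day 5 summit had a median of 1.43 times as many fragments (quartiles 1.12 and 1.78) and 1.6 times the local background. Intervals are exact 95% intervals, Clopper-Pearson for shares and Poisson for fragments, and cover counting error only. The marker lists for acinar, endocrine, leukocyte, fibroblast and keratin genes had a peak at 0 of 32 genes in both libraries. Among all protein-coding genes 27.4% had one at day 5 and 14.4% without doxycycline. A Myc peak does not measure expression, so neither those lists nor these data test the cell type on the label.

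The unfolded protein response answers unfolded protein in the endoplasmic reticulum (ER) through 3 sensors. The kinase PERK (EIF2AK3) phosphorylates the translation factor eIF2, as do the other kinases of the integrated stress response, which lowers protein synthesis while the ATF4 mRNA is translated. The nuclease IRE1 splices the XBP1 mRNA, and ATF6 is cut in the Golgi to release a transcription factor. Their targets include ER chaperones and the machinery that returns proteins from the ER for degradation. Myc with its partner MAX binds the E-box CACGTG, and Myc is known for driving protein synthesis.

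Promoter letters are shown for 4 members whose peaks covered the gene start and whose promoters held an E-box or an ER stress element, a motif bound by ATF6 and XBP1. The sequences are the 250 bases before the first RefSeq start of GRCh38.p14, 5′ to 3′ on the strand of the gene. Capitals mark CACGTG and the ER stress elements, of which the first is CCAAT followed after any 9 bases by CCACG and the second is ATTGG followed after any single base by CCACG. HERPUD1 lies at chr16:56931892-56932141 on the plus strand, HSPA5 at chr9:125241344-125241593 on the minus strand, XBP1 at chr22:28800570-28800819 on the minus strand and ATF4 at chr22:39520309-39520558 on the plus strand.
HERPUD1 promoter: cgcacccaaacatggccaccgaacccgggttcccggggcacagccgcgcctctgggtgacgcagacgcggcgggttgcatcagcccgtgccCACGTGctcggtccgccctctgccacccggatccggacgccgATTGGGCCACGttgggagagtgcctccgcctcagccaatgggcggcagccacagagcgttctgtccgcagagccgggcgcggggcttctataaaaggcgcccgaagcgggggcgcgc
HSPA5 promoter: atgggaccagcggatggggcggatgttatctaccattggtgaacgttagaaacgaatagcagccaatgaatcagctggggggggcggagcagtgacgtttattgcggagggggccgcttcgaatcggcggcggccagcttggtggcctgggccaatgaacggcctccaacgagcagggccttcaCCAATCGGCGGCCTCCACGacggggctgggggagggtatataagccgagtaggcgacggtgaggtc
XBP1 promoter: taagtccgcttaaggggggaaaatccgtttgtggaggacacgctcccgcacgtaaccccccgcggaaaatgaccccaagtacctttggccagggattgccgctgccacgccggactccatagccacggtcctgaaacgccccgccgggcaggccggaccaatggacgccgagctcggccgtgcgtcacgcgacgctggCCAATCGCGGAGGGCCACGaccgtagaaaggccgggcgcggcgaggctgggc
ATF4 promoter: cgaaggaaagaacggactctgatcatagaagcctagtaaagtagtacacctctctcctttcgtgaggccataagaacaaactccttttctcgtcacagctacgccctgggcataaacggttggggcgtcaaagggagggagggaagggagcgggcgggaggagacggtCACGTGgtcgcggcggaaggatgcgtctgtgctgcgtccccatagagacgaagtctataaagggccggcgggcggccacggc
All 10 members had an entry in the promoter table. HERPUD1 was the member with both an E-box (159 bp before the start) and an ER stress element. Its day 5 summit lay 52 bp downstream of the E-box centre and 7 bp downstream of the ER stress element centre. For the summit without doxycycline these distances were 162 and 117 bp. In HSPA5 the summit lay 223 bp downstream of the ER stress element centre at day 5 and 67 bp without doxycycline. In XBP1 the day 5 summit lay 471 bp downstream of that centre. ATF4 had its E-box 82 bp before the start. Its summit lay 91 bp downstream of the E-box centre at day 5 and 117 bp upstream without doxycycline. In windows of 300 bases (250 before and 50 after the start), searched on both strands, CACGTG was in 2 of 10 members and in 8.88% of 15843 protein-coding promoters. It was in 14.3% of the 3978 promoters that a day 5 peak overlapped and in 7.06% of the other promoters, where the median GC content was 65.0% and 61.3%. The related CACGCG was in ATF4, TRIB3 and XBP1, and in 14.8% of all promoters. CCAAT was in 6 members and 36.4% of promoters, and CCACG, which can overlap CACGTG and is part of both ER stress elements, in 7 members and 44.0%. The first ER stress element was in HSPA5 and XBP1, and in 0.12% of promoters, and the second in HERPUD1 and 0.0757%. TGATGNAAT, a form of the site bound by ATF4 with C/EBP factors, was in 0 of 10 members and 0.625% of promoters. A match describes letters and is not evidence of binding by any factor.

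A Myc peak was listed for 8 of the 10 members at day 5 (80.0%, interval 44.4 to 97.5) and for 5 without doxycycline (50.0%, 18.7 to 81.3). Among all protein-coding genes the shares were 27.4% at day 5 and 14.4% without doxycycline. EIF2AK3, ATF4, ATF6, HSPA5 and HERPUD1 were in both lists, where 12.9% of all genes were. DDIT3, TRIB3 and XBP1 were listed at day 5 only, as were 14.5% of all genes. PPP1R15A and ATF3 were in neither list, as were 71.1% of genes, and 0 members were listed only without doxycycline, against 1.57% of genes. With so few members, no share was shown to be particular to them. An unlisted gene is one with no peak past the threshold of the deposited list, and Myc may still be there.

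**Figure D1:**
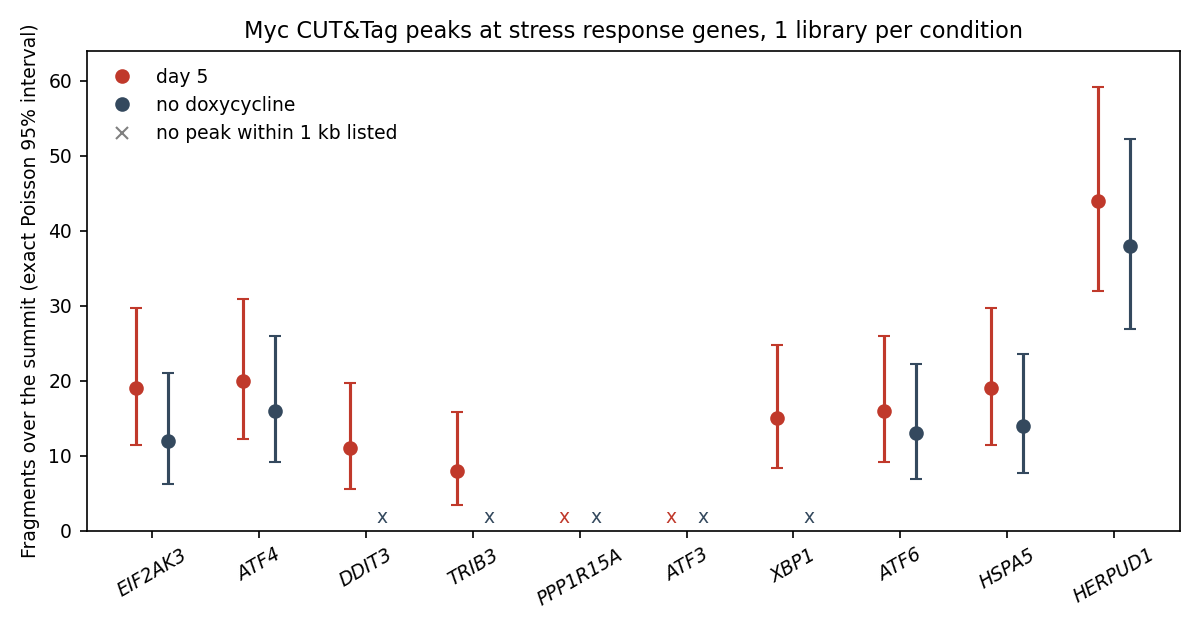
Fragments over the Myc peak summit (vertical axis) for each member gene (horizontal axis), at day 5 in red to the left and without doxycycline in dark blue to the right, with exact Poisson 95% intervals and a cross where no peak within 1 kb was listed. HERPUD1 stands highest at 44 and 38 fragments, and in each of the 5 genes with both points the intervals overlap.

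The gene of the eIF2 kinase of the unfolded protein response had a listed Myc peak in both libraries. EIF2AK3 (chromosome 2, span 88556741 to 88628145, minus strand) had 19 fragments over its summit at day 5 (11.4 to 29.7) and 12 without doxycycline (6.2 to 21.0). Both intervals overlap, and the ratio of 1.58 was the only member ratio above the 1.43 median of all shared sites. The summits at 88627896 at day 5 and 88627897 without doxycycline lay 1 bp apart. They stood 432 and 433 bp before the start of EIF2AK3 in the promoter table and inside the gene span, which reaches further upstream. Both lay within 68 bp of the start of EIF2AK3-DT, a long non-coding RNA that begins inside the same span. The peak can therefore not be given to EIF2AK3 alone. Its deposited fold over local background, the authors' own value, was the highest of all members at day 5, at 10.8. It was 8.19 without doxycycline.

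ATF4, the transcription factor whose mRNA is translated when eIF2 is phosphorylated, also had a listed Myc peak in both libraries. Its summit had 20 fragments at day 5 (12.2 to 30.9) and 16 without doxycycline (9.15 to 26.0), a ratio of 1.25. The day 5 peak spanned 39519891 to 39521046 on chromosome 22 and the other 39519699 to 39520570, and they shared 680 bp. The summit lay 11 bp after the first RefSeq start at day 5 and 197 bp before it without doxycycline, on either side of the E-box. No other gene end lay within 1 kb of either peak.

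DDIT3 and TRIB3, which act below ATF4, had weak peaks listed at day 5 only. DDIT3 encodes CHOP, a transcription factor of ER stress-induced cell death. It had 11 fragments at day 5 (5.49 to 19.7) in a peak at 57520487 to 57520893 of chromosome 12, with the summit 8 bp before its upstream RefSeq start. MBD6, a methyl-CpG-binding domain protein, starts 198 bp from DDIT3 in the other direction, and the same peak lay within 1 kb of that start and of LOC128125814, an overlapping coding gene. Without doxycycline the nearest peak, 57521852 to 57522271, lay 1335 bp from the end of DDIT3, just outside the distance of the rule. That peak had 13 fragments (6.92 to 22.2), and its summit was 1319 bp inside MBD6. A gap of 959 bp separated it from the day 5 peak, and 0 day 5 peaks overlapped it.

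TRIB3 encodes a pseudokinase that is induced by ATF4 and CHOP. Its day 5 summit had 8 fragments (3.45 to 15.8), the fewest of any member, in a peak of 340 bp, which was the smallest width in the day 5 list. The summit lay 526 bp before the nearest start in the promoter table and 9 bp after the first base of the gene span.

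PPP1R15A and ATF3 had no listed peak at their ends. PPP1R15A encodes GADD34, which brings a phosphatase to eIF2 and ends the response. The nearest peak was 23.8 kb from its ends at day 5 and 117 kb without doxycycline. ATF3, a stress-induced transcription factor of the ATF/CREB family, had no day 5 peak closer than 237 kb. Without doxycycline a peak of 6 fragments (2.2 to 13.1) lay inside the gene, at 212608445 to 212608803 of chromosome 1, with its summit 6365 bp before the downstream RefSeq start. It was 11974 bp from the nearest end of the span and so outside the rule, and 0 day 5 peaks overlapped it.

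**Figure D2:**
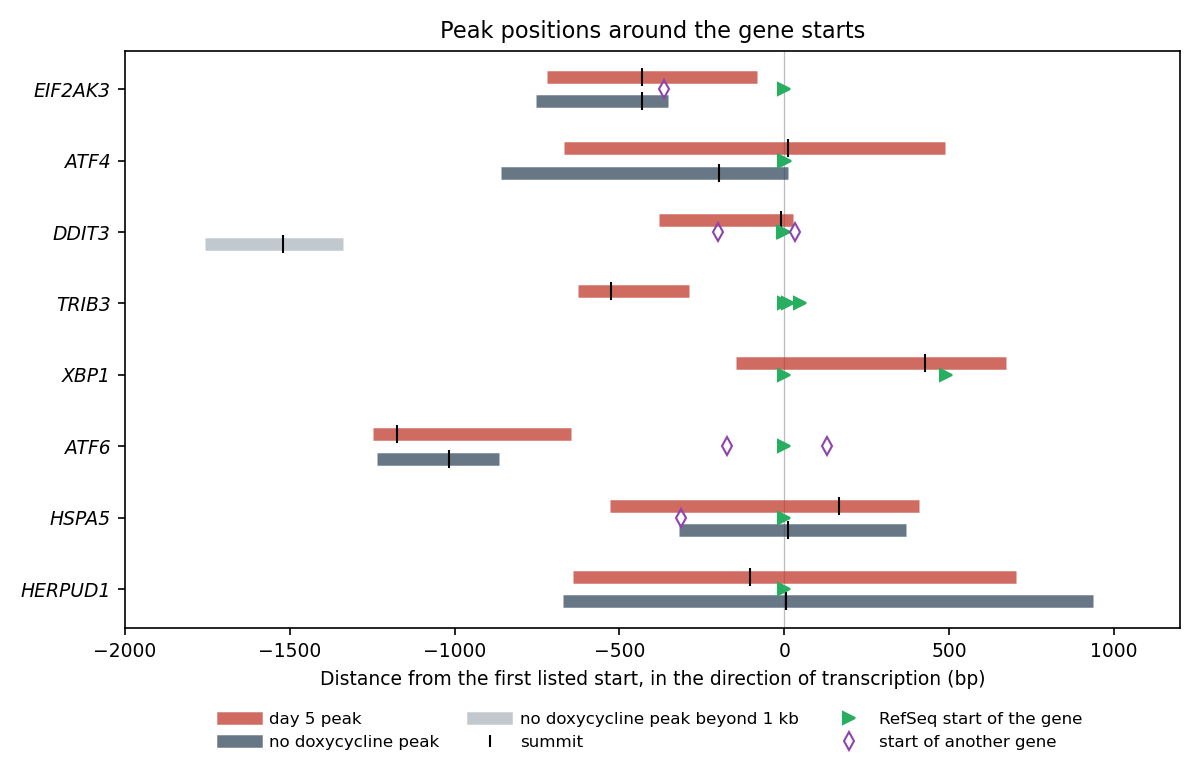
Myc peaks of 8 members as bars, with day 5 in red above and no doxycycline in dark blue below, against the distance in bp from the first RefSeq start in the direction of transcription; vertical ticks are summits, filled triangles RefSeq starts of the gene and open diamonds starts of other genes. ATF4, DDIT3, XBP1, HSPA5 and HERPUD1 have a start of the promoter table inside the day 5 peak. The pale DDIT3 bar is the peak 1335 bp from the gene.

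Of the IRE1 and ATF6 arms, XBP1 was listed at day 5 only and ATF6 in both libraries. XBP1, the transcription factor made from the mRNA that IRE1 splices, had 15 fragments at day 5 (8.4 to 24.7) in a peak at 28799897 to 28800715 of chromosome 22. That peak held both RefSeq starts of XBP1, with the summit 428 bp after the upstream start and 64 bp before the downstream start. Without doxycycline the nearest peak was 52.1 kb away. XBP1 thus had the best-ranked peak of the 3 members listed at day 5 only, at 2133 of 6727, whereas DDIT3 and TRIB3 ranked 5686 and 5717.

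ATF6, the membrane-bound transcription factor, had 16 fragments at day 5 (9.15 to 26.0) and 13 without doxycycline (6.92 to 22.2), a ratio of 1.23. These peaks lay at 161765073 to 161765672 and 161765083 to 161765456 of chromosome 1, wholly before the gene. The edges came within 648 bp of the gene start at day 5 and 864 bp without doxycycline, just inside the rule, and the summits were 1176 and 1016 bp before it. Both summits lay within ATF6-DT, a divergent long non-coding RNA that starts between them and ATF6. With a distance of 500 bp, or with the summit itself required within 1 kb, ATF6 was in neither list.

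The ER effectors HSPA5 and HERPUD1 had a listed Myc peak at their starts in both libraries. HSPA5 encodes BiP, the main ER chaperone of the HSP70 family. Its summit had 19 fragments at day 5 (11.4 to 29.7) and 14 without doxycycline (7.65 to 23.5), a ratio of 1.36, at 125240933 to 125241873 and 125240975 to 125241662 of chromosome 9. The summit was 166 bp after the RefSeq start at day 5 and 10 bp after it without doxycycline. The start of HSPA5-DT, a divergent long non-coding RNA, was inside both peaks.

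HERPUD1, an ER membrane protein of ER-associated degradation, carried the strongest and widest member peak in each library. It had 44 fragments at day 5 (32.0 to 59.1) and 38 without doxycycline (26.9 to 52.2), in peaks of 1346 and 1611 bp. The ratio of 1.16 was the lowest of the 5 member pairs, and 28.4% of shared sites had a ratio no higher. No other gene end lay within 1 kb. It ranked 240 of 6727 peaks at day 5, the top 3.57%, and 125 of 3472 without doxycycline, the top 3.6%. The deposited fold was 8.39 and 9.0. Local background at this gene, 4.37 fragments at day 5 and 3.33 without doxycycline, was the highest among the members.

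**Figure D3:**
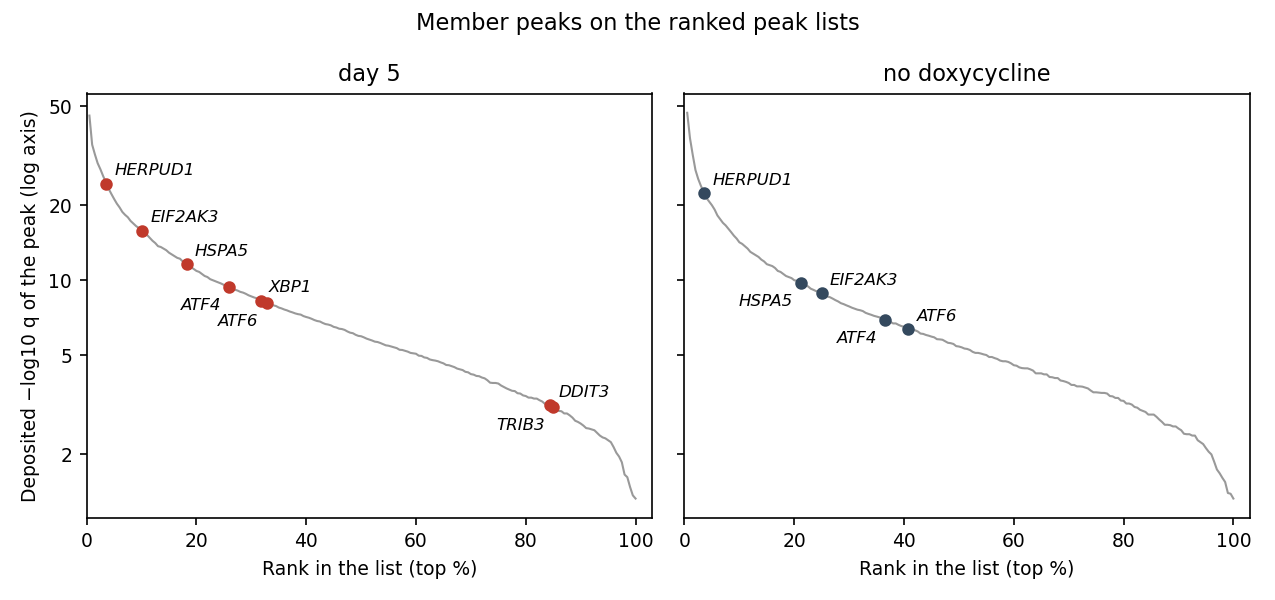
Deposited −log10 q (vertical, log axis) against rank in the list as a percent of all peaks (horizontal), with the grey line for all peaks and dots for member peaks, day 5 on the left and no doxycycline on the right. HERPUD1 is in the top 3.57% and 3.6%, and DDIT3 and TRIB3 lie at 84.5% and 85.0% of the day 5 list.

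The 5 members in both lists had ratios of 1.16 to 1.58, all above 1, and 4 of them were below the 1.43 median of all shared sites. Their summits moved by 1 to 208 bp between libraries. Of the 8 members listed at day 5, 6 were in the upper part of that list by rank (at or above 50%), and all 5 listed without doxycycline were in the upper part of theirs, down to 40.8% for ATF6. Every marked member had its peak at the start rather than the far end of the gene, and so did 96.4% of 4653 marked genes with a known strand at day 5 and 95.9% of 2484 without doxycycline. DDIT3 was the only one of the 8 whose peak also reached another protein-coding gene, while 39.7% of all genes marked at day 5 shared their peak in this way.

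How often day 5 peaks of like rank had a counterpart gives a setting for the 3 members listed at day 5 only. Among the 200 day 5 peaks nearest in rank to XBP1, 97 overlapped a peak without doxycycline (48.5%, 41.4 to 55.7). Near DDIT3 the share was 19.5% (14.2 to 25.7) and near TRIB3 17.5% (12.5 to 23.5). Near HERPUD1 it was 95.5% (91.6 to 97.9). A missing counterpart was thus usual at the ranks of DDIT3 and TRIB3 and about as frequent as a counterpart at that of XBP1. The part that the unequal number of peaks has in these 3 listings was not tested. When the day 5 list was cut to its 3472 highest-ranked peaks, 6 members were listed at day 5, against 15.7% of all protein-coding genes in the same shortened list. XBP1 was among these 6, and DDIT3 and TRIB3 were not.

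**Figure D4:**
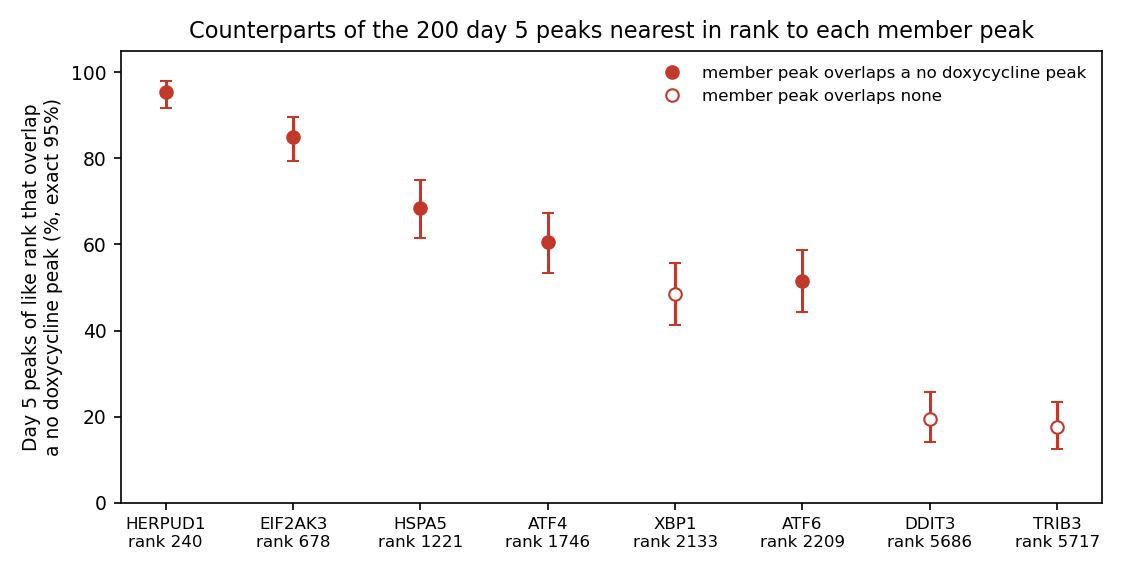
Percent of the 200 day 5 peaks nearest in rank to each member's peak that overlap a peak without doxycycline (vertical, exact 95% intervals), with members ordered by rank (horizontal); filled points are members whose own peak has a counterpart and open points those without. The share is 95.5% at HERPUD1, 48.5% at XBP1 and 17.5% at TRIB3.

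Beyond the 10 members, 134 other genes of the pathway in 6 lists, also chosen with earlier results known, were examined. A Myc peak was listed for 68 of them at day 5 (50.7%, 42.0 to 59.5) and for 37 without doxycycline (27.6%, 20.2 to 36.0), against 27.4% and 14.4% of all protein-coding genes. In both lists were 36, at day 5 only 32 and without doxycycline only 1. With equal numbers of peaks the day 5 count was 49, against 15.7% of all protein-coding genes in that shortened list, and the count without doxycycline stayed 37. Actively transcribed genes were not separated from silent ones here, and the lists were not set against genes of like activity. For genes of these lists the fragments given are those of the best-ranked peak within 1 kb in each library. Whether the peaks of the 2 libraries overlap was not checked for these genes. All shared sites had a median ratio of 1.43, day 5 over no doxycycline.

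Genes of eIF2 control had a peak at 10 of 16 at day 5 (62.5%, 35.4 to 84.8), against 27.4% of all genes. Without doxycycline 5 did (31.2%, 11.0 to 58.7), against 14.4%. EIF2S1, the eIF2 subunit that the stress kinases phosphorylate, had 27 fragments at day 5, in a peak shared with ATP6V1D, and 33 without doxycycline. EIF2S3, the GTP-binding subunit, had 30 and 20. EIF2B4 and EIF2B5 encode subunits of the exchange factor that phosphorylated eIF2 blocks. EIF2B4 had 24 fragments at day 5 and was not listed without doxycycline, and EIF2B5 had 23 at day 5 and 19 without doxycycline.

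IRE1 and ATF6 branch genes were listed in 7 of 15 cases at day 5 (46.7%, 21.3 to 73.4), against 27.4% of all genes. Without doxycycline 4 were (26.7%, 7.79 to 55.1), against 14.4%. Both intervals hold the share of all genes. With equal numbers of peaks the day 5 count was 4, the same as without doxycycline, and 15.7% of all protein-coding genes were listed. At a −log10 q of at least 5 the counts were 4 at day 5 and 3 without doxycycline. The shares of all protein-coding genes at that cut were 18.1% and 8.65%. MBTPS1, the Golgi protease that first cuts ATF6, had 21 fragments at day 5 and 11 without doxycycline. ZBTB8OS, a cofactor of the ligase that joins the spliced XBP1 exons, had 22 and 16, and its day 5 peak was shared with RBBP4. The ER stress transducers CREB3L2 and CREB3L4 had 12 and 19 fragments at day 5, and 5 and 29 without doxycycline.

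Targets of ATF4 and CHOP were marked at 19 of 36 at day 5 and 9 without doxycycline. MTHFD2, a mitochondrial one-carbon enzyme, had 43 fragments at day 5 and 25 without doxycycline. EIF4EBP1, a repressor of cap-dependent translation, had 47 and 22, ATF5, a transcription factor related to ATF4, 41 and 30, and SLC7A5, a transporter of large neutral amino acids, 33 and 18. The day 5 peak of ATF5 also reached NUP62 and IL4I1. With equal numbers of peaks, or at a −log10 q of at least 5, the day 5 count of this list was 12. The shares of all protein-coding genes were then 15.7% and 18.1%.

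ER chaperones and folding enzymes were marked at 12 of 22 at day 5 (54.5%, 32.2 to 75.6), against 27.4% of all genes. Without doxycycline 9 were (40.9%, 20.7 to 63.6), against 14.4%. HSP90B1, the ER form of HSP90, had 36 fragments at day 5 and 29 without doxycycline, and PDIA4, a disulfide isomerase, 32 and 30. CRELD1 had 22 and 8, and DNAJB9, a cochaperone of BiP, 24 and 12. In ER-associated degradation 7 of 20 genes were marked at day 5 and 5 without doxycycline. DERL2, a channel-associated protein, had 16 fragments and 7, SYVN1, the ubiquitin ligase HRD1, 17 and 9, and EDEM3, a mannosidase-like protein, 17 and 8. UFD1, a partner of the extracting ATPase VCP, had 15 at day 5 only, in a peak shared with CDC45, whereas DERL1 had 5 and was listed only without doxycycline. At a −log10 q of at least 5 this list had 0 genes without doxycycline, against 8.65% of all protein-coding genes.

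Genes of ER translocation and coated transport, many of them known XBP1 targets, were marked at 13 of 25 at day 5. This was 52.0% (31.3 to 72.2), against 27.4% of all genes. Without doxycycline 5 were marked (20.0%, 6.83 to 40.7), against 14.4%. SEC31A, a COPII coat subunit, had 42 fragments at day 5 and 19 without doxycycline, and SEC23B, another, 22 and 16. SRP54, the signal-sequence-binding subunit of the signal recognition particle, had 33 and 16, and SSR3 of the translocon had 15 at day 5 only. Across the 25 named genes of the 6 lists, 10 peaks, all of the day 5 list, lay within 1 kb of another protein-coding gene. Besides those given above, EIF2B4 shared its peak with SNX17, CREB3L4 with SLC39A1 and CRELD1 with IL17RC. DNAJB9 shared its peak with THAP5, DERL2 with MIS12 and SEC31A with THAP9.

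**Figure D5:**
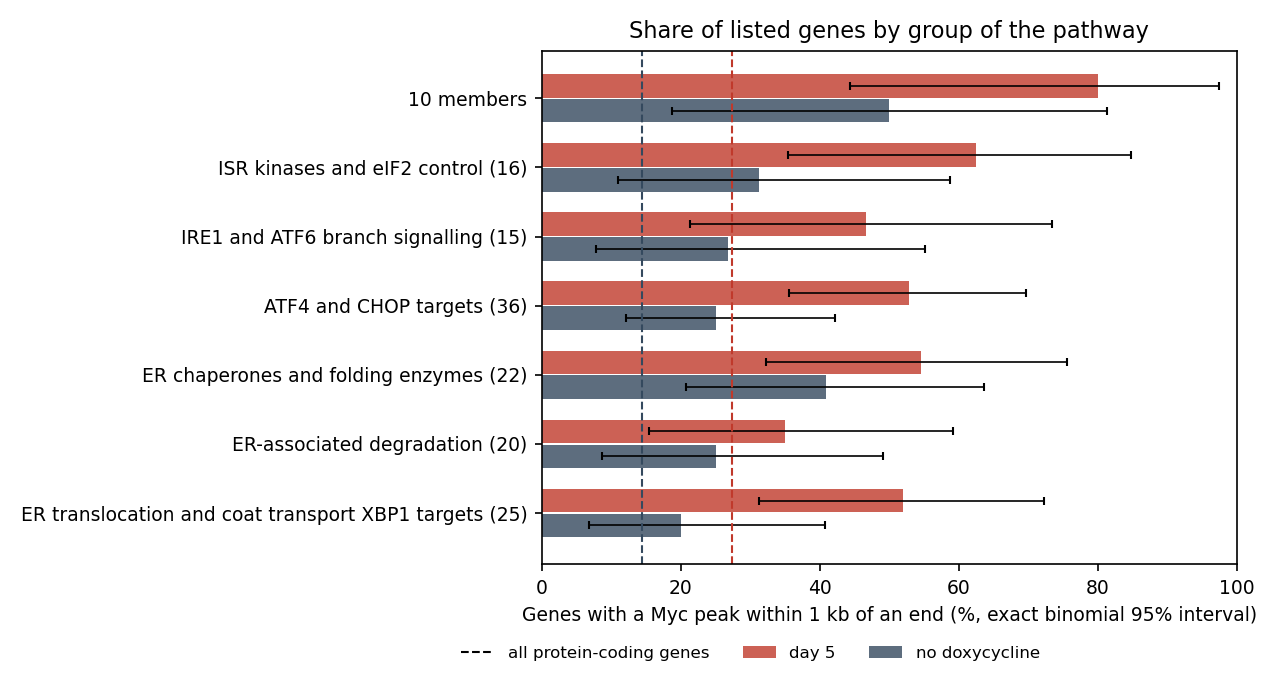
Percent of genes marked by a Myc peak (horizontal, exact binomial 95% intervals) for the 10 members and the 6 pathway lists with their sizes (vertical), day 5 in red above and no doxycycline in dark blue below; dashed lines mark all protein-coding genes at 27.4% and 14.4%. The members stand at 80.0% and 50.0%, and the lists run from 35.0% to 62.5% at day 5 and from 20.0% to 40.9% without doxycycline.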

How the data were processed

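Myc CUT&Tag peak lists of 2 of 24 samples were used, grouped by title. The submitters' processing notes name MACS2, Bowtie2, Trim Galore and deepTools, and the build hg38. Not given in the sources used here: versions, settings and the use of IgG in the peak calls. Peak names show 1 alignment per list, so peaks were called per library. The authors deposited 10 columns without a header: the score (the integer part of 10 times −log10 q), the fold (a ratio) of the summit over local background, and the −log10 p and −log10 q-value at the summit. These are the authors' own values and served to rank, filter or describe peaks within a list and to recover fragments; no deposited value was tested between lists. The start, end and summit offset that the authors deposited are positions in bp; the start was raised by 1.

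Fragments were recovered from the deposited fold and −log10 p, taking fold as (fragments + 1)/(background + 1) and p as a Poisson tail, within 0.001, for 99.97% of day 5 peaks and 99.89% of peaks without doxycycline. On simulated data 100.0% of 6727 and 99.9% of 3472 peaks were recovered. Duplicates cannot be seen in peak lists. Gene spans, starts and promoters came from RefSeq GRCh38.p14, the hg38 assembly. The promoter table covers 15843 of the 20037 protein-coding genes, and the first listed start was used for motifs. Overlap meant at least 1 bp. Python 3.11.15, scipy 1.17.1 and pandas 2.3.3 were used.

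The members and lists were chosen with earlier results of these data known. All members were named, with up to 4 genes of each list by day 5 rank and any list gene marked only without doxycycline. The 2 ER stress elements were added to the motif list after the files were seen. Alternatives were distances of 500 and 2500 bp, the summit within 1 kb, starts only, a −log10 q of at least 2 or 5, equal numbers of peaks, all sequences, reciprocal overlap of 50% and summits within 500 bp.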

Additional observations from a re-analysis of the deposited data

How the results depend on the processing

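The number of members listed at day 5 was 6 to 8 and without doxycycline 4 to 6 under all alternatives run. At 2500 bp DDIT3 was in both lists, through the peak inside MBD6. At 500 bp, or with the summit within 1 kb, ATF6 was in neither. A −log10 q of at least 5, like equal numbers of peaks, took DDIT3 and TRIB3 from the day 5 list. The 5 shared member peaks stayed shared under both other overlap rules. Counts over all protein-coding genes also fell with the stricter lists. At a −log10 q of at least 5 there were 3619 genes at day 5 (18.1%) and 1733 without doxycycline (8.65%). With equal numbers of peaks there were 3146 at day 5 (15.7%). Pathway genes without doxycycline were 24 at a −log10 q of at least 5, against 8.65% of all protein-coding genes. For single pathway lists, 43 of 48 recounts were within 1.5 times the count given. No paired analysis was possible because each condition has 1 Myc library. Few fragments per peak limit these data, and for each of the 5 members in both lists, at 12 to 44 fragments, the counting intervals of the libraries overlap.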

Other observations

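Some smaller groups within the pathway lists, picked after their values were seen, are given here as values only, beside 27.4% of all protein-coding genes at day 5 and 14.4% without doxycycline. Of the 5 eIF2B subunit genes, 4 had a Myc peak at day 5 and 2 without doxycycline, EIF2B2 being in neither list. Of the other eIF2 kinases, EIF2AK1 had 12 fragments and EIF2AK4 11, both at day 5 only, and the interferon-induced EIF2AK2 was not listed. Serine and one-carbon enzymes among the ATF4 targets were marked at 4 of 5 in both libraries, with PSAT1 at 15 fragments at day 5 and 12 without doxycycline and SHMT2 at 13 and 12, and PHGDH was in neither list. For the SEC61 and SSR subunits of the translocon, 5 of 7 genes were marked at day 5 and 1 without doxycycline. Of the 8 genes of the signal recognition particle and its receptor, 3 were marked at day 5 and 1 without doxycycline.

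Several genes often used to read out the response had no listed peak in either library, as was so for 71.1% of all protein-coding genes. They were ERN1, which encodes IRE1, and the targets ASNS, SESN2, SLC7A11, NUPR1, HYOU1, DNAJC3, MANF and SEL1L. Others were listed, among them CHAC1 and DDIT4 at day 5 only, and HSP90B1, CALR, DNAJB9, SDF2L1 and SYVN1 in both libraries. These genes are examples picked from the lists, and read-out genes were not counted as a group.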
